A study of Mus musculus with 27 samples.

Results

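The serpins are a superfamily of protease inhibitors and related carriers and chaperones, and their genes were followed here through mouse lungs exposed to house dust mite and to combustion products. Members were the protein-coding genes whose symbol begins with Serpin in the deposited count and TPM tables, 63 of 56941 annotated genes. TPM is a relative transcript level that is corrected for transcript length and scaled to the same sum in every library. A member was taken as expressed at a mean of at least 0.5 TPM over the 27 libraries, which held for 28 members, and 35 members passed the count filter for testing (25 expressed members and 10 others).

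An inhibitory serpin offers a protease an exposed reactive-centre loop as bait. When the protease cuts the loop, the serpin folds it into its own body and drags the protease along, so that both are lost in a covalent complex. In the lung, secreted serpins are known for holding neutrophil elastase, thrombin, the plasminogen activators and the complement protease C1 in check, while the Serpinb branch stays inside cells and guards them against leaked granule and lysosomal proteases.

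RNA was sequenced after polyA selection from whole lungs of male C57Bl/6J mice, 7 to 8 weeks old. Mice of HDM_CP (n = 7) and HDM_SAL (n = 6) received 5 oropharyngeal doses of 10 µg of house dust mite extract (HDM) in 50 µl PBS at intervals of a few days, and mice of PBS_CP (n = 7) and PBS_SAL (n = 7) received PBS alone. At 24 h after the last dose, 100 µl of saline was instilled, either alone (SAL) or with combustion products (CP) at 2 mg per ml, collected from burning plywood, paper and plastic, and lungs were collected 24 h later. The labels give no pooling, so each library was taken as 1 mouse and is named here by group and number. The p-values measure the spread between these libraries.

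Libraries held from 56.3 M to 84.5 M estimated counts, and 24629 genes were tested. Markers of alveolar epithelium, the defining cells of lung, summed to between 31959 and 42188 TPM in every library. One library stood apart for the serpins. HDM_SAL 50 held 79.8 TPM of the liver transcript Alb (albumin), against 0.176 to 2.85 TPM in the other 26 libraries, and results that rest on it are given with and without it. HDM_SAL 54 had the highest mitochondrial share of counts (3.86%) and was the lowest HDM_SAL library for 13 of the 25 expressed, tested members. HDM_SAL 99 was the highest for 12 of them. Whole lung mixes many cell types, so a lower value may mean fewer cells of a type or less RNA per cell, and these cannot be told apart.

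The bases that encode the reactive-centre loop are shown for 6 genes of the Serpina3 cluster, because this cluster held most of the called members and its genes differ more in the loop than over the whole coding sequence. Over the aligned coding sequence, the 21 pairs among Serpina3n, Serpina3g, Serpina3f, Serpina3i, Serpina3c, Serpina3m and Serpina3k were 81.1% to 92.6% identical, with a median of 85.05%. Over the 72 bases (24 codons) of the loop, the pairs with a loop found were 54.2% to 77.8% identical. This trait was not particular to the cluster. Serpinb6 pairs were 52.78% to 65.28% identical in the loop and 86.35% to 87.91% over the coding sequence. Serpinb9 and Serpinb9b were 51.39% and 86.42% identical. Capitals mark bases that differ from Serpina3n, and each stretch is written 5′ to 3′ on the plus strand, from the GENCODE transcripts of the GRCm38 build.
Serpina3n (chr12:104413442-104413513): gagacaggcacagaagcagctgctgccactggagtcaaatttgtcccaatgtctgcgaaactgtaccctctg
Serpina3i (chr12:104268474-104268545): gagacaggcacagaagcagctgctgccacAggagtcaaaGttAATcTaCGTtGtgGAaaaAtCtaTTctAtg
Serpina3m (chr12:104393763-104393834): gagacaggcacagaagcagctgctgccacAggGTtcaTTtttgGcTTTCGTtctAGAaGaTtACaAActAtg
Serpina3g (chr12:104241066-104241137): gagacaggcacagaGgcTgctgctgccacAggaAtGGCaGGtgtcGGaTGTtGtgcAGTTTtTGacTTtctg
Serpina3k (chr12:104345263-104345334): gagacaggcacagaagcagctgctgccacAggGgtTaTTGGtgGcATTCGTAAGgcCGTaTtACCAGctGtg
Serpina3f (chr12:104220239-104220310): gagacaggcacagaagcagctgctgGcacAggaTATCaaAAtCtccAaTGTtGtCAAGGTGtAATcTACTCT

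The first 36 bases of the loop, its hinge side, were nearly the same in all 6 genes, with 1 to 5 differences from Serpina3n. The last 36 bases, which hold the bait side that a protease reads, differed at 16 bases in Serpina3i, 19 in Serpina3m, 19 in Serpina3g, 24 in Serpina3k and 25 in Serpina3f. These cluster members are close paralogs, as are those named Serpina1, Serpinb1, Serpinb3, Serpinb6 and Serpinb9, and the upstream counting may have shared reads among them. Serpina3k and Serpina3m also start at the same annotated position (chromosome 12, 104304745, GRCm39), and Serpinb2 overlaps Serpinb10 on chromosome 1, so their values are uncertain beyond the printed errors.

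Promoter windows from RefSeq (GRCm38.p6, 250 bases before to 50 bases after a start) were available for 54 of the 63 members. The letters TTCNNNGAA, a palindrome that STAT transcription factors are known to bind in cytokine-responsive genes, were in a window of 8 members (Serpina3f, Serpina3g, Serpina3i, Serpina11, Serpina1f, Serpinb2, Serpinb6a and Serpinb9c) and in 8.30% of all 32851 windows. The 54 members had 63 windows between them, so a count of members with any match is not the same measure as a share of windows. The E-box CACGTG was in a window of 0 members and in 7.15% of all windows. Both motifs read the same on either strand, so 1 search covers both, and neither contains the other. The stretches around the match are shown for the 3 Serpina3 genes, which were all higher in HDM lungs, with the match in capitals, 5′ to 3′ on the plus strand.
Serpina3f (chr12:104214383-104214455): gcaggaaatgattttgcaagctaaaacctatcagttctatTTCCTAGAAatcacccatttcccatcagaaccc
Serpina3g (chr12:104236074-104236146): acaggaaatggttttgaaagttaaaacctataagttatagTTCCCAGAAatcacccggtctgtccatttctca
Serpina3i (chr12:104262980-104263052): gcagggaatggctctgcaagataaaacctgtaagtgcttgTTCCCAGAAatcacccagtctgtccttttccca

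The match began 121, 33 and 102 bases upstream of the annotated start in Serpina3f, Serpina3g and Serpina3i. Of the 73 bases shown, Serpina3g and Serpina3i had 60 in common position by position. Serpina3n and Serpina3c had windows without these letters in them. A match is a run of letters and was not tested for binding.

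Secreted and intracellular inhibitors both stood among the abundant serpins of the lung. The 5 members over 100 TPM on average were Serping1 (391 TPM), which encodes the C1 inhibitor of complement and contact activation, and Serpinh1 (293 TPM), which encodes the collagen chaperone HSP47 and inhibits no protease. They were followed by Serpina3n (182 TPM), an acute phase inhibitor related to human antichymotrypsin, by Serpinb6a (177 TPM), an intracellular inhibitor, and by Serpine2 (121 TPM), protease nexin-1, which blocks thrombin and the plasminogen activators. These 5 genes held 70.6% to 80.5% of the family's summed TPM in every library.

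Between 10 and 100 TPM on average lay Serpinb6b (96.6 TPM), Serpinb9 (91.1 TPM), which inhibits granzyme B inside cells, Serpina3g (47.5 TPM), an intracellular inhibitor of cysteine cathepsins in leukocytes, and Serpinb1a (29.7 TPM), which inhibits neutrophil elastase. Serpinf1 (16.8 TPM), the non-inhibitory factor PEDF, Serpina3f (12.8 TPM) and Serpina3c (12 TPM) lay lower in that range. Between 1 and 10 TPM lay Serpinb8 (7.30 TPM), Serpina3m (6.66 TPM), Serpinb10 (3.05 TPM), Serpind1 (2.69 TPM), Serpina3i (2.24 TPM), Serpinb1b (1.37 TPM) and Serpina1e (1.09 TPM).

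Just inside the limit of 0.5 TPM were Serpini1 (0.927 TPM), Serpina7 (0.895 TPM), Serpinb2 (0.843 TPM), Serpina9 (0.822 TPM), Serpina3k (0.710 TPM), Serpina1c (0.654 TPM), Serpinb9b (0.567 TPM) and Serpina1b (0.549 TPM). Just outside were Serpinf2 (0.431 TPM), which encodes the plasmin inhibitor antiplasmin, Serpina1a (0.425 TPM) and Serpinc1 (0.389 TPM), which encodes antithrombin. Serpina1e, Serpina1c, Serpina1b and Serpina3k passed only through HDM_SAL 50, and without that library 24 members were expressed. Of the other 35 members, 8 were listed at 0 in every library, and all 4 Serpinb3 genes failed the count filter.

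**Figure D1:**
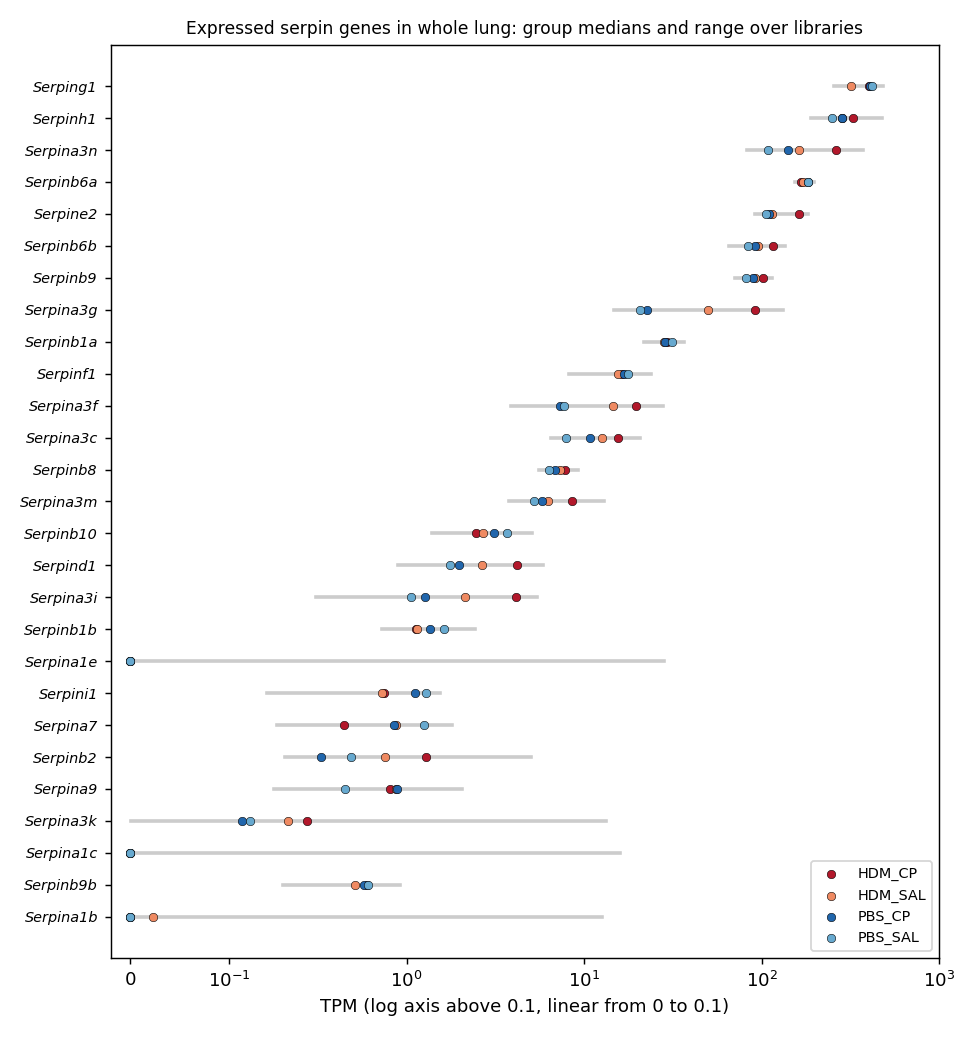
Level of 27 expressed serpin genes in TPM, on a log axis that turns linear from 0 to 0.1. Points are the medians of the 4 groups and grey bars run from the lowest to the highest of the 27 libraries; the bars of the Serpina1 genes and of Serpina3k reach from near 0 to between 12.6 and 28.2 TPM because of HDM_SAL 50.

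The family's summed level was 1449, 1831 and 2015 TPM (lowest, median, highest) in HDM_CP, 1158, 1500 and 1688 TPM in HDM_SAL, 1420, 1467 and 1562 TPM in PBS_CP and 1244, 1429 and 1515 TPM in PBS_SAL. The HDM_CP median was thus the highest of the 4, while the ranges of all groups overlapped. The sum was not tested.

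After HDM without combustion products, Serpina3g, Serpina3i, Serpina3n, Serpina3c and Serpina3f of the Serpina3 cluster and Serpind1 were higher, and Serping1 was lower. In HDM_SAL against PBS_SAL, 8 of the 35 tested members were called (edgeR's quasi-likelihood test, p adjusted over all genes by Benjamini-Hochberg, threshold 0.05), 7 higher and 1 lower, beside 5.44% of all genes tested (3.19% higher and 2.25% lower). Without HDM_SAL 50, 7 members were called, and calls over all genes fell from 1339 to 699. The median log2 fold change was 0.28 over the 35 members and 0.01 over all genes. A member counted low in 1 treatment could pass the filter through the group where it was high, so these counts describe the tested members and not the family.

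Serpina3g had 40.9, 50.1 and 101 TPM (lowest, median, highest) in HDM_SAL, against 14.7, 20.5 and 26 TPM in PBS_SAL. Every HDM_SAL library lay above every PBS_SAL library. The log2 fold change was 1.59 ± 0.26 (SE, adjusted p = 0.00073). Serpina3i had 1.44, 2.13 and 4.54 TPM in HDM_SAL, against 0.308, 1.06 and 1.94 TPM in PBS_SAL. It was higher by 1.32 ± 0.26 on the log2 scale (adjusted p = 0.0030), with 5 of 6 HDM_SAL libraries above the whole PBS_SAL range.

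Serpina3n (chromosome 12, 104372988 to 104380588, GRCm39), the most abundant of the cluster, had 120, 163 and 285 TPM in HDM_SAL, against 83.0, 109 and 151 TPM in PBS_SAL. The groups overlapped only through PBS_SAL 104 and the lowest HDM_SAL library, and the log2 fold change was 0.77 ± 0.16 (adjusted p = 0.0042). Serpina3c had 9.69, 12.7 and 18.9 TPM in HDM_SAL, against 6.55, 7.93 and 12.4 TPM in PBS_SAL. All 6 HDM_SAL libraries were above the PBS_SAL median and 4 above its highest library, a log2 fold change of 0.65 ± 0.14 (adjusted p = 0.0061).

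Serpina3f had 8.23, 14.5 and 24.3 TPM in HDM_SAL, against 3.86, 7.68 and 12.9 TPM in PBS_SAL, a log2 fold change of 1.00 ± 0.29 (adjusted p = 0.040). This call was lost when any of HDM_SAL 52, 54, 72 or 99 or PBS_SAL 61, 64, 80, 81 or 104 was left out, with log2 fold changes between 0.82 and 1.16 and adjusted p between 0.020 and 0.15 over the 27 fits that each lacked 1 library. Serpina3m, another expressed gene of the cluster, was not called. Its level was 3.77, 6.29 and 13 TPM in HDM_SAL, against 4.71, 5.26 and 8.38 TPM in PBS_SAL (log2 fold change 0.34 ± 0.21, adjusted p = 0.40).

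Serpina3k was called higher by 3.55 ± 1.02 on the log2 scale (adjusted p = 0.040), but the value came from 1 library. It had 0.00108, 0.215 and 13.3 TPM in HDM_SAL, against 0.0501, 0.131 and 0.767 TPM in PBS_SAL, and HDM_SAL 50 was the library at 13.3 TPM. In HDM_CP against PBS_CP its log2 fold change was 1.71 ± 1.04 (adjusted p = 0.38), although every HDM_CP library lay above every PBS_CP library. Without HDM_SAL 50 the log2 fold change in HDM_SAL against PBS_SAL was -0.43 (adjusted p = 0.81, within a range of 0.018 to 0.81 over the 27 fits that each lacked 1 library), and the other such fits reached 4.35. The call was also lost without PBS_SAL 64, 79, 80, 81, 104 or 105.

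**Figure D2:**
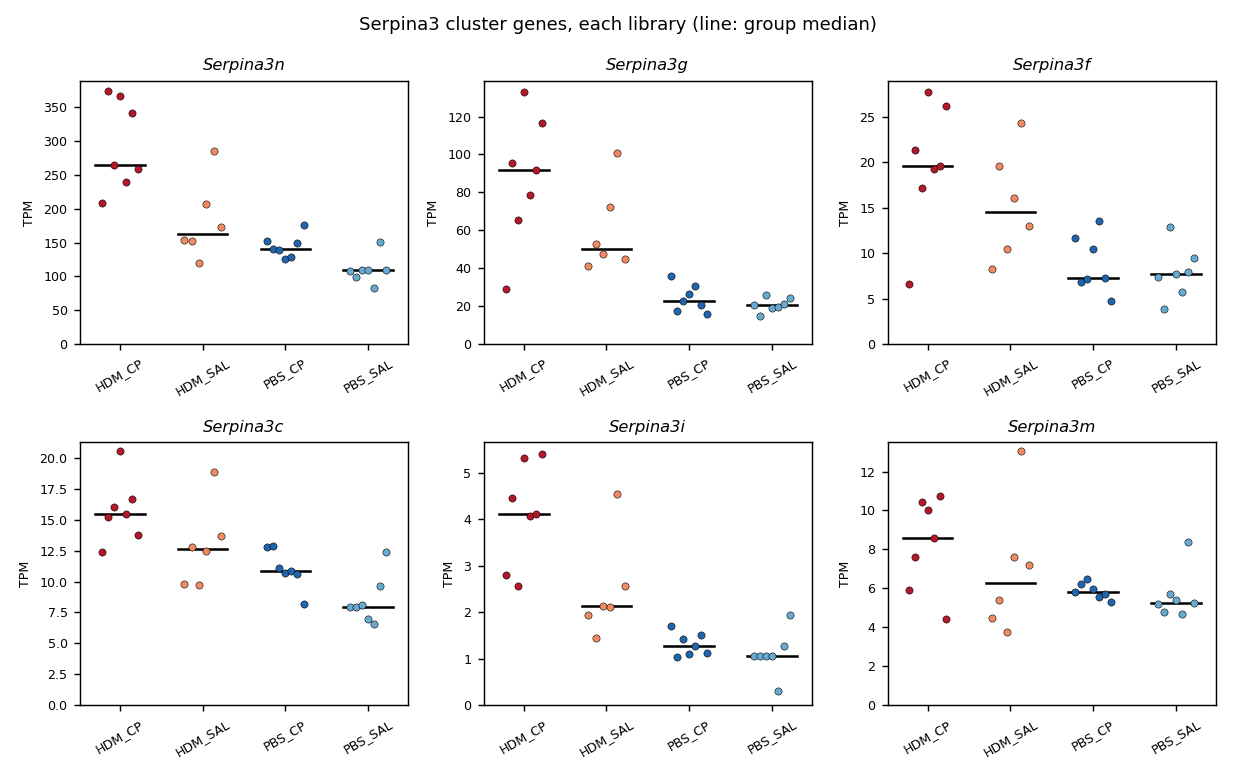
TPM of 6 Serpina3 cluster genes in each library, with 1 point per mouse, a line at the group median and linear axes from 0. The HDM_CP and HDM_SAL points sit above most PBS_CP and PBS_SAL points in Serpina3g, Serpina3i and Serpina3n, and HDM_CP 45 is the low HDM_CP point of Serpina3n, Serpina3g, Serpina3f and Serpina3c.

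Outside the cluster, Serpind1 (chromosome 16, 17149235 to 17161439), which encodes the thrombin inhibitor heparin cofactor II, had 2.11, 2.66 and 5.20 TPM in HDM_SAL, against 0.899, 1.77 and 1.91 TPM in PBS_SAL. The groups did not overlap. Its log2 fold change was 0.96 ± 0.24 (adjusted p = 0.018), and without HDM_SAL 99, the library at 5.20 TPM, it was 0.73 with the call lost (adjusted p = 0.090, the highest of the 27 fits that each lacked 1 library, the lowest being 0.0097).

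Serping1 (chromosome 2, 84595731 to 84605788) was the only called member that was lower. It had 254, 320 and 398 TPM in HDM_SAL, against 380, 416 and 481 TPM in PBS_SAL. Of 6 HDM_SAL libraries, 5 lay below every PBS_SAL library, and the log2 fold change was -0.32 ± 0.08 (adjusted p = 0.015). Fibroblast markers were mixed, with 3 of 9 called lower (Tcf21, Dcn and Lum) and 0 higher, and 1 of 9 lower without HDM_SAL 50. Their median log2 fold change was -0.19, with 3 of 9 positive, and it was -0.12 without HDM_SAL 50. Their summed level was 1428, 1732 and 2020 TPM (lowest, median, highest) in HDM_SAL and 1246, 1698 and 2430 TPM in PBS_SAL. This sum does not stand for each marker. Of 8 endothelial markers, 1 (Ednrb) was called lower and 0 higher, and 0 were called without HDM_SAL 50. Their median log2 fold change was -0.13, with 3 of 8 positive. Of 8 smooth muscle and pericyte markers, 2 were called higher and 2 lower, with a median of 0.22. Without HDM_SAL 50, 1 of them was higher and 0 lower. The part of these cell types in the Serping1 value was not tested.

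Markers of monocytes and macrophages moved with the Serpina3 genes. Of 10 markers, 4 were called higher in HDM_SAL against PBS_SAL and 7 in HDM_CP against PBS_CP, and none was at 0 in a whole group. Their summed level was 1886 to 6061 TPM in HDM_CP, 1642 to 3444 TPM in HDM_SAL, 543 to 941 TPM in PBS_CP and 474 to 962 TPM in PBS_SAL, so that HDM and PBS libraries did not overlap. The sum does not speak for every marker. The median log2 fold change of the 10 was 0.16 in the first comparison and 0.81 in the second, beside 2.20 ± 0.30 and 2.96 ± 0.30 for Chil3. Airway secretory markers were higher in 3 of 10 in HDM_SAL against PBS_SAL, led by Muc5b and Muc5ac, and in HDM_CP against PBS_CP 4 were higher and 1, Cyp2f2, was lower. Neutrophil markers were positive in only 3 of 9 in HDM_SAL against PBS_SAL, with a median of -0.33 and Retnlg called higher. In HDM_CP against PBS_CP neutrophil markers were positive in 9 of 9, with a median of 0.71 and Retnlg and Mmp8 called, and fibroblast markers had 2 higher (Col3a1 and Col1a2) and 1 lower (Tcf21). The neutrophil markers summed to 166 to 674 TPM in HDM_CP and 143 to 298 TPM in PBS_CP, and the fibroblast markers to 1512 to 2896 TPM and 1581 to 2014 TPM in these groups. The part of these cell types in the serpin values was not tested.

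In mice that all received combustion products, the same 5 genes of the Serpina3 cluster and Serpind1 were called higher with HDM, and so were Serpinb2, Serpine2 and Serpina10. For Serpinb2 and Serpine2 the difference from the HDM effect without combustion products did not pass (interaction adjusted p = 0.77 and 0.80). In HDM_CP against PBS_CP, 9 of the 35 tested members were called, all 9 higher, beside 7.87% of all genes tested (5.60% higher and 2.27% lower). The median log2 fold change was 0.27 over the 35 members and 0.00 over all genes. HDM_CP and PBS_CP share no library with HDM_SAL and PBS_SAL, but all 4 groups share the fit.

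Serpina3g had 28.8, 92.0 and 133 TPM in HDM_CP, against 15.7, 22.7 and 35.8 TPM in PBS_CP. Only HDM_CP 45 fell within the PBS_CP range, and the log2 fold change was 1.84 ± 0.25 (adjusted p = 0.00010). Serpina3n had 208, 264 and 374 TPM in HDM_CP, against 125, 141 and 175 TPM in PBS_CP. The groups did not overlap, with a log2 fold change of 1.04 ± 0.15 (adjusted p = 0.00014). Serpina3i had 2.55, 4.12 and 5.40 TPM in HDM_CP, against 1.03, 1.28 and 1.70 TPM in PBS_CP. These groups did not overlap either, and the log2 fold change was 1.66 ± 0.25 (adjusted p = 0.00018).

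Serpina3f had 6.63, 19.7 and 27.8 TPM in HDM_CP, against 4.73, 7.31 and 13.5 TPM in PBS_CP (log2 fold change 1.16 ± 0.28, adjusted p = 0.0096). Serpina3c had 12.4, 15.5 and 20.5 TPM in HDM_CP, against 8.20, 10.9 and 12.9 TPM in PBS_CP (log2 fold change 0.53 ± 0.13, adjusted p = 0.013). In both genes 6 of 7 HDM_CP libraries lay above the whole PBS_CP range, and HDM_CP 45 was the exception. Serpina3m was at 4.41, 8.57 and 10.7 TPM in HDM_CP, against 5.31, 5.83 and 6.47 TPM in PBS_CP, and was not called (log2 fold change 0.50 ± 0.20, adjusted p = 0.14).

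Some inhibitors of the clotting and plasminogen cascades were higher with them, while others, Serpinc1, Serpinf2 and Serpini1, were not called. Serpind1 had 1.88, 4.22 and 5.91 TPM in HDM_CP, against 1.09, 1.97 and 2.29 TPM in PBS_CP, with 6 of 7 HDM_CP libraries above the PBS_CP range (log2 fold change 1.36 ± 0.23, adjusted p = 0.00050). Serpine2 (chromosome 1, 79771914 to 79838897) had 116, 162 and 181 TPM in HDM_CP, against 104, 111 and 132 TPM in PBS_CP. HDM_CP split into 4 libraries above 132 TPM and 3 within the PBS_CP range, and the log2 fold change was 0.40 ± 0.09 (adjusted p = 0.0036).

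Serpinb2, which encodes the plasminogen activator inhibitor PAI-2 of activated macrophages and epithelium, had 0.463, 1.29 and 5.03 TPM in HDM_CP, against 0.214, 0.329 and 0.480 TPM in PBS_CP. Of 7 HDM_CP libraries, 6 lay above the PBS_CP range, and HDM_CP 67 was the highest by far. The log2 fold change was 2.21 ± 0.42 (adjusted p = 0.0013), and it stayed between 1.67 and 2.38 and called when any 1 library was left out. Serpina10, which encodes an inhibitor of coagulation factor Xa, averaged only 0.310 TPM and was called by 1.12 ± 0.35 (adjusted p = 0.048). It had 0.105, 0.463 and 0.974 TPM in HDM_CP, against 0.145, 0.191 and 0.382 TPM in PBS_CP, and it was called in 8 of the 27 fits that each lacked 1 library, with adjusted p between 0.010 and 0.17.

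Serping1, lower in HDM_SAL, had 309, 402 and 478 TPM in HDM_CP, against 376, 409 and 464 TPM in PBS_CP. These ranges lay within each other for the most part, and the log2 fold change was -0.05 ± 0.07 (adjusted p = 0.80). The difference between the HDM effects with and without CP, the interaction, was 0.27 ± 0.11 for Serping1 (unadjusted p = 0.018, adjusted p = 0.77), so it did not pass.

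**Figure D3:**
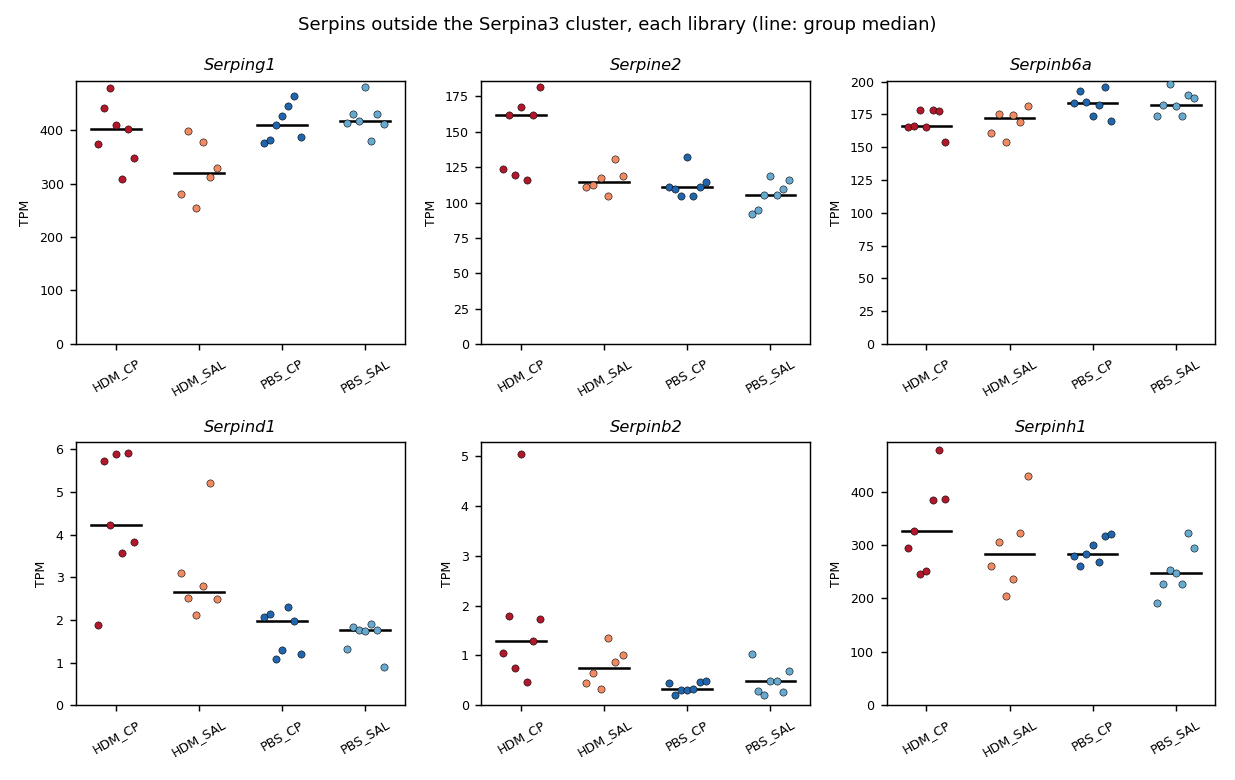
TPM of 6 serpin genes outside the Serpina3 cluster in each library, with 1 point per mouse, a line at the group median and linear axes from 0. The HDM_SAL points of Serping1 sit mostly below the other groups, 4 of 7 HDM_CP points of Serpine2 stand above the rest, and HDM_CP 67 is the high point of Serpinb2 at 5.03 TPM.

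Combustion products alone left no serpin past the threshold. In PBS_CP against PBS_SAL, 0 of 35 members were called by edgeR's quasi-likelihood test, beside 0.00812% of all genes, and DESeq2 also called 0. At an unadjusted p under 0.05 there were 2 members, beside 5.45% of all genes. They were Serpina3c, with 8.20, 10.9 and 12.9 TPM in PBS_CP against 6.55, 7.93 and 12.4 TPM in PBS_SAL (log2 fold change 0.37 ± 0.14, adjusted p = 0.75), and Serpina3n, with 125, 141 and 175 TPM in PBS_CP against 83.0, 109 and 151 TPM in PBS_SAL (log2 fold change 0.39 ± 0.15, adjusted p = 0.81). In both genes all 7 PBS_CP libraries lay above the PBS_SAL median, and 2 above its highest library. The next smallest p-values were those of Serpinb7 (log2 fold change -1.89 ± 1.04, adjusted p = 0.98), which was not expressed at 0.128 TPM, Serpinh1 (0.20 ± 0.14, adjusted p = 1.0) and Serpina3i (0.36 ± 0.25, adjusted p = 1.0).

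In mice given HDM, combustion products went with higher Serpina3n, but not past the threshold of the main test. In HDM_CP against HDM_SAL, 0 of 35 members were called by edgeR's quasi-likelihood test, beside 0.00406% of all genes, and 9 members had an unadjusted p under 0.05, beside 9.70% of all genes. DESeq2 called 2, Serpina3n higher and Serpinc1 lower, beside 192 of all genes. Serpina3n had 208, 264 and 374 TPM in HDM_CP, against 120, 163 and 285 TPM in HDM_SAL, and all 7 HDM_CP libraries were above the HDM_SAL median. Its log2 fold change was 0.66 ± 0.16 (adjusted p = 0.14), and it was called by edgeR's test when HDM_CP 45 was left out (0.72, adjusted p = 0.041) and when HDM_SAL 99 was left out (0.83, adjusted p = 0.021), within a range of 0.021 to 0.37 over the 27 fits.

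Serpinc1, not expressed by the limit used here, had 0.144, 0.237 and 0.407 TPM in HDM_CP, against 0.232, 0.458 and 2.38 TPM in HDM_SAL, where HDM_SAL 50 was the library at 2.38 TPM. Its log2 fold change was -1.64 ± 0.42 (adjusted p = 0.15), and it was -0.69 (adjusted p = 0.59) without HDM_SAL 50, in a range of -1.81 to -0.69 over the 27 fits that each lacked 1 library. Serpine2 stood at 0.30 ± 0.09 (adjusted p = 0.22), Serping1 at 0.22 ± 0.08 (adjusted p = 0.30) and Serpina3i at 0.69 ± 0.25 (adjusted p = 0.33). In Serpina3n, Serpine2 and Serpina3i all 7 HDM_CP libraries were above the HDM_SAL median. Neutrophil markers moved in the same direction, with 9 of 9 log2 fold changes positive, 0 called and a median of 1.04, and their summed level was 166 to 674 TPM in HDM_CP and 117 to 215 TPM in HDM_SAL. Monocyte and macrophage markers were positive in 9 of 10 (median 0.27) and fibroblast markers in 8 of 9 (median 0.34). Airway secretory markers were positive in 1 of 10 (median -0.40), and 0 were called in any of these lists. The part of these cell types in the serpin values was not tested.

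The interaction asked whether the effect of HDM differed with and without combustion products. Of 35 members, 0 were called by edgeR's quasi-likelihood test, beside 0% of all genes, DESeq2 called 0 members, and 3 members had an unadjusted p under 0.05, beside 6.38% of all genes. They were Serpinc1 (-1.70 ± 0.59, adjusted p = 0.74, and -0.75 without HDM_SAL 50, adjusted p = 0.93), Serpinb2 (1.54 ± 0.59, adjusted p = 0.77) and Serping1. Serpina7 (-0.98 ± 0.49, adjusted p = 0.78) and Serpine2 (0.22 ± 0.12, adjusted p = 0.80) followed. For Serpina3g the interaction was 0.25 ± 0.36, with a 95% interval from -0.45 to 0.95, and for Serpina3n it was 0.27 ± 0.22, from -0.15 to 0.69. No member was therefore shown to respond to HDM differently with combustion products.

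**Figure D4:**
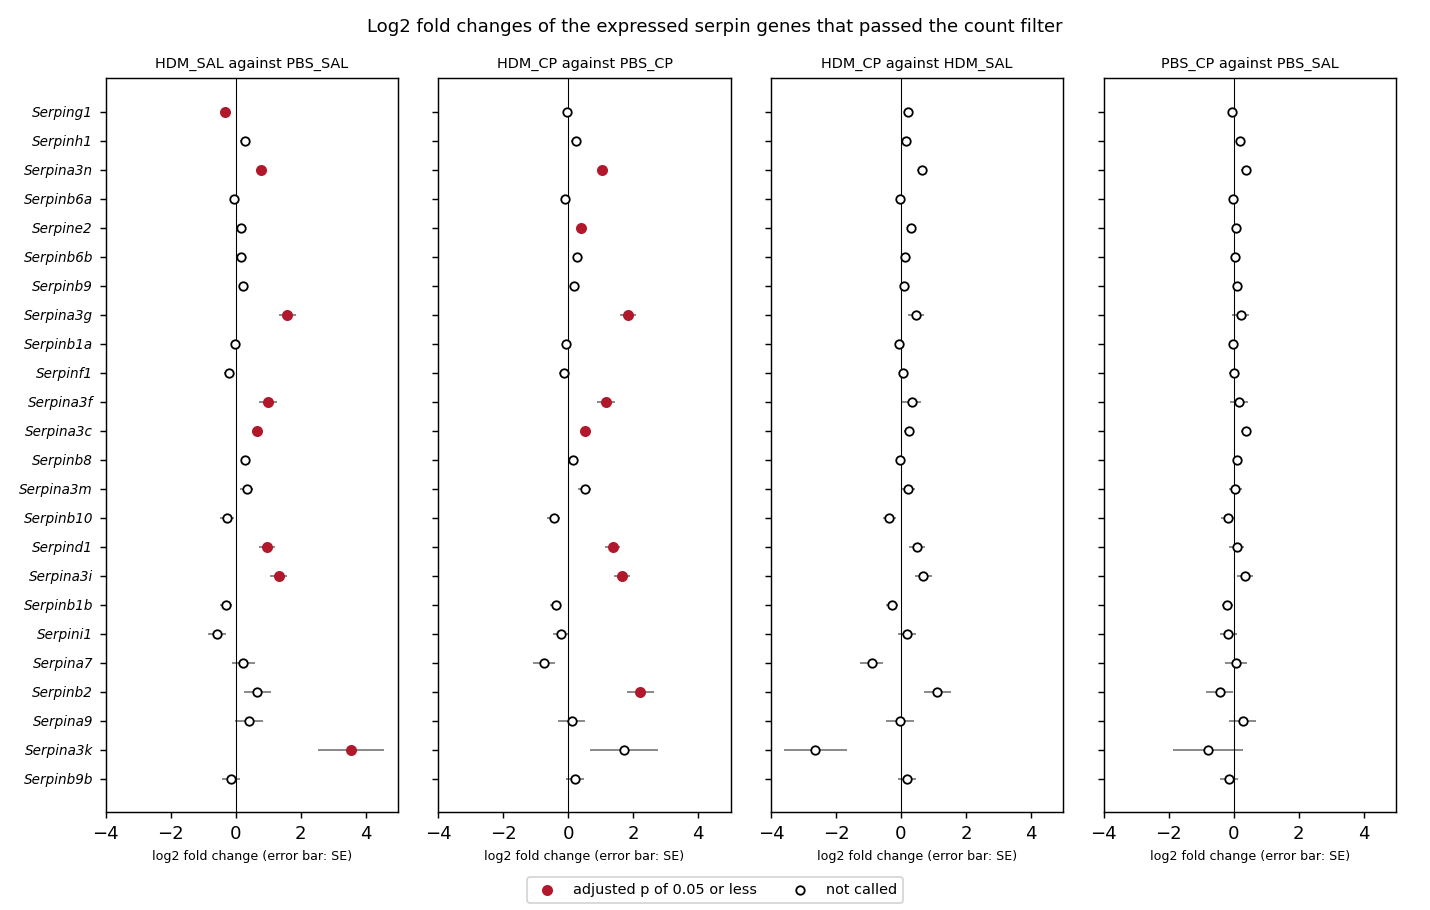
Log2 fold change (x axis, error bars are SE) of 24 expressed serpin genes that passed the count filter, ordered by mean TPM, in 4 comparisons. Filled red points are called at an adjusted p of 0.05 or less; 8 are filled in HDM_SAL against PBS_SAL, 8 in HDM_CP against PBS_CP and 0 in the other comparisons, and Serpina10, called but not expressed, is not drawn.

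Several of the most abundant members were not called in any comparison. Serpinb6a had 154, 166 and 179 TPM in HDM_CP, 154, 172 and 181 TPM in HDM_SAL, 170, 184 and 196 TPM in PBS_CP and 174, 182 and 198 TPM in PBS_SAL. Its log2 fold changes lay between -0.09 and -0.01 in the 4 comparisons, with 95% intervals from -0.17 to -0.01 in HDM_CP against PBS_CP and from -0.14 to 0.02 in HDM_SAL against PBS_SAL. None was called. Serpinh1 had 245, 326 and 478 TPM in HDM_CP, 204, 282 and 428 TPM in HDM_SAL, 261, 284 and 321 TPM in PBS_CP and 191, 248 and 322 TPM in PBS_SAL. It spread more widely in the HDM groups, and it was not called (0.28 ± 0.15 in HDM_SAL against PBS_SAL and 0.24 ± 0.14 in HDM_CP against PBS_CP).

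The intracellular inhibitors of granule proteases were not called either. Serpinb9 had 73.5, 102 and 115 TPM in HDM_CP, 79.5, 91.7 and 108 TPM in HDM_SAL, 71.1, 90.0 and 104 TPM in PBS_CP and 70.8, 81.3 and 93.3 TPM in PBS_SAL. Serpinb6b had 65.6, 115 and 135 TPM in HDM_CP, 82.1, 95.4 and 116 TPM in HDM_SAL, 77.1, 91.7 and 102 TPM in PBS_CP and 80.2, 84.2 and 104 TPM in PBS_SAL. The log2 fold change in HDM_CP against PBS_CP was 0.19 ± 0.08 for Serpinb9 (adjusted p = 0.18) and 0.27 ± 0.10 for Serpinb6b (adjusted p = 0.080). HDM_CP 45 was the lowest HDM_CP library of both genes. Without it both were called, which made 11 members in that comparison. Calls over all genes also rose in that fit, from 1938 to 2262. Serpinb1a had 23.2, 29.4 and 30.8 TPM in HDM_CP, 21.7, 28.2 and 36.4 TPM in HDM_SAL, 26.6, 28.7 and 36.3 TPM in PBS_CP and 25.3, 31.2 and 35.1 TPM in PBS_SAL. Its ranges overlapped throughout (log2 fold change -0.03 ± 0.08 in HDM_SAL against PBS_SAL and -0.07 ± 0.08 in HDM_CP against PBS_CP).

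Of the other expressed members, Serpinf1, Serpinb8, Serpinb10, Serpinb1b, Serpini1, Serpina7, Serpina9 and Serpinb9b were called in none of the 4 comparisons. The nearest was Serpinb8 in HDM_SAL against PBS_SAL (0.28 ± 0.09, adjusted p = 0.053), with all 6 HDM_SAL libraries above the PBS_SAL median.

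Serpina7, which encodes the thyroxine carrier of blood and inhibits no protease, had 0.187, 0.445 and 1.08 TPM in HDM_CP, 0.562, 0.873 and 1.80 TPM in HDM_SAL, 0.714, 0.848 and 1.37 TPM in PBS_CP and 0.495, 1.26 and 1.79 TPM in PBS_SAL. Of 7 HDM_CP libraries, 5 lay below every HDM_SAL library and 5 below every PBS_CP library, without a call (log2 fold change -0.90 ± 0.36, adjusted p = 0.39, and -0.74 ± 0.35, adjusted p = 0.21). Serpinb10 had 1.4, 2.47 and 3.13 TPM in HDM_CP, 1.79, 2.69 and 4.54 TPM in HDM_SAL, 2.37, 3.13 and 4.44 TPM in PBS_CP and 2.50, 3.70 and 5.06 TPM in PBS_SAL. It was lowest at the median in HDM_CP and highest in PBS_SAL, with all neighbouring groups overlapping.

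Serpini1, which encodes neuroserpin, an inhibitor of tissue plasminogen activator, had medians of 0.748 TPM in HDM_CP, 0.732 TPM in HDM_SAL, 1.12 TPM in PBS_CP and 1.29 TPM in PBS_SAL (log2 fold change -0.58 ± 0.27 in HDM_SAL against PBS_SAL, adjusted p = 0.22). Serpinb1b, a paralog of Serpinb1a, had medians of 1.14 TPM in both HDM_CP and HDM_SAL, 1.36 TPM in PBS_CP and 1.63 TPM in PBS_SAL. In HDM_SAL against PBS_SAL 4 of 6 HDM_SAL libraries lay below every PBS_SAL library, without a call (-0.31 ± 0.19, adjusted p = 0.38). Serpinf1 had medians of 16.5 TPM in HDM_CP, 15.6 TPM in HDM_SAL, 16.9 TPM in PBS_CP and 17.8 TPM in PBS_SAL, and its ranges overlapped in every comparison.

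The genes of alpha-1 antitrypsin, the elastase inhibitor that liver secretes into blood, were read almost wholly from 1 library. Serpina1a to Serpina1e summed to 76.4 TPM in HDM_SAL 50, to 3.86 TPM in HDM_CP 45 and to at most 0.839 TPM in every other library. In HDM_SAL 50, Serpina1e stood at 28.2 TPM, Serpina1c at 15.9 TPM, Serpina1b at 12.6 TPM, Serpina1a at 10.5 TPM and Serpina1d at 9.12 TPM. The 8 liver markers (Alb, Apoa1, Apoa2, Ttr, Fgb, Fga, Ahsg and Apoh) summed to 183 TPM in HDM_SAL 50, and to between 1.36 and 9.12 TPM in the other 26 libraries. The Serpina1 genes failed the count filter in the fit of all 27 libraries and were not tested there. In the 4 fits that lacked HDM_SAL 54, 72, 99 or 100, which kept HDM_SAL 50, Serpina1b and Serpina1c passed it, and Serpina1c was called higher in HDM_SAL against PBS_SAL (adjusted p between 0.023 and 0.042).

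**Figure D5:**
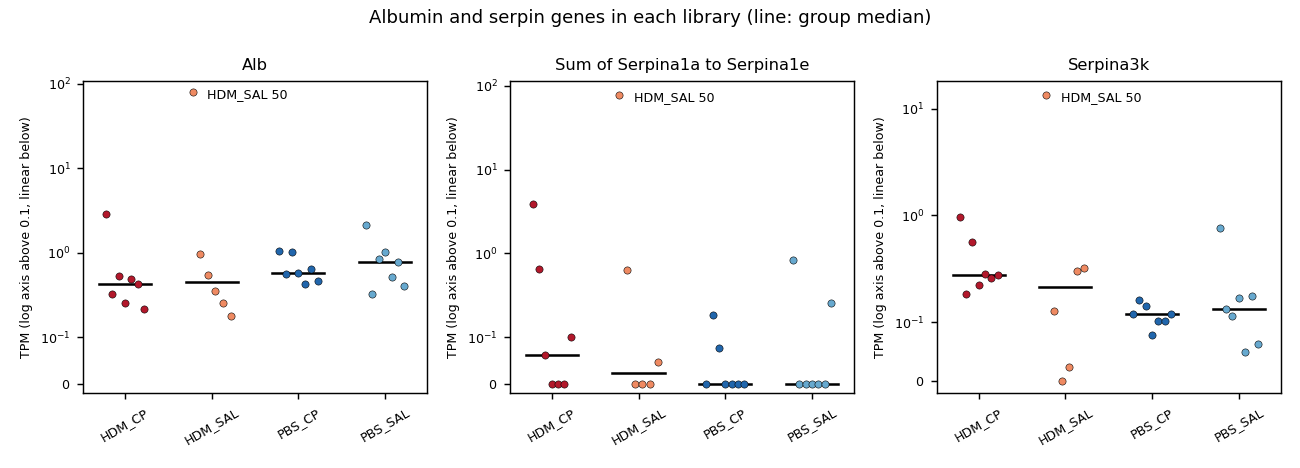
TPM of Alb, of the summed Serpina1a to Serpina1e genes and of Serpina3k in each library, with 1 point per mouse and a line at the group median, on log axes that turn linear below 0.1. HDM_SAL 50 stands at 79.8, 76.4 and 13.3 TPM, above every other library in each panel.

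Genes that work with serpins were read from lists, described by counts of called members and medians. Beside them stand 3.19% of all genes higher and 2.25% lower in HDM_SAL against PBS_SAL, with a median of 0.01, and 5.60% higher and 2.27% lower in HDM_CP against PBS_CP, with a median of 0.00. Among 20 tested coagulation and contact genes, 5 were higher and 0 lower in HDM_SAL against PBS_SAL, with a median of 0.22, and 6 were higher and 0 lower in HDM_CP against PBS_CP, with a median of 0.36. F10, which encodes the factor X that Serpina10 and antithrombin act on, was higher by 1.31 ± 0.23 (adjusted p = 0.0012) and by 1.72 ± 0.22 (adjusted p = 3.6e-05). F7 was higher by 0.85 ± 0.23 and 1.39 ± 0.22, and the inhibitor gene Tfpi2 by 0.93 ± 0.21 and 1.22 ± 0.20. F2, which encodes prothrombin and is also a liver transcript, was higher in HDM_SAL by 1.78 ± 0.46 (adjusted p = 0.022). Without HDM_SAL 50, F2 stood at 1.24 (adjusted p = 0.12) and F7 at 0.82 (adjusted p = 0.064), and 3 genes of the list were called, with a median of 0.14. F2 was also not called without HDM_SAL 54 or PBS_SAL 80, and F7 without HDM_SAL 54, HDM_SAL 99, PBS_SAL 80 or PBS_SAL 81.

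Of 11 plasminogen activation genes, 0 were higher and 2 lower in HDM_SAL against PBS_SAL (Vldlr, -0.44 ± 0.12, and Vtn, -0.41 ± 0.12). In HDM_CP against PBS_CP, 2 were higher and 1 lower, with the urokinase gene Plau, a target of Serpine2 and Serpinb2, at 0.55 ± 0.13 (adjusted p = 0.0071). The medians were 0.03 and -0.01. Of 9 complement C1 and lectin genes, 2 were higher in HDM_SAL against PBS_SAL (C1qa, 0.97 ± 0.25, and C1qc, 0.96 ± 0.25) and 5 in HDM_CP against PBS_CP, with medians of 0.19 and 0.38. Among these 5 was C1ra, a protease that the C1 inhibitor blocks (0.44 ± 0.10, adjusted p = 0.0049).

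Serpina3g is known to block some, but not all, lysosomal cysteine cathepsins. Of 10 genes of this class, 2 were higher and 1 lower in HDM_SAL against PBS_SAL (Ctsh, 0.37 ± 0.09, Ctsc, 0.46 ± 0.13, and Ctsf, -0.33 ± 0.07). In HDM_CP against PBS_CP 6 were higher and 0 lower, with a median of 0.59, among them Ctsb (0.64 ± 0.10, adjusted p = 0.00030) and Ctsz (0.77 ± 0.13, adjusted p = 0.00038). No tested granule protease passed edgeR's test in these comparisons, but many failed the count filter. Tested were 2 of 5 neutrophil serine proteases, 4 of 7 granzymes and 3 of 8 mast cell and basophil proteases. Elane, which encodes neutrophil elastase, was at 0 in every library of HDM_SAL, PBS_CP and PBS_SAL. The 5 neutrophil genes summed to at most 3.98 TPM in any library. The medians in HDM_SAL against PBS_SAL and in HDM_CP against PBS_CP were 0.01 and 0.77 for 2 tested neutrophil serine proteases, -0.04 and -0.54 for 4 granzymes, and 0.22 and 0.32 for 3 mast cell and basophil proteases.

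Of 21 acute phase and STAT3 response genes, 4 were higher and 0 lower in HDM_SAL against PBS_SAL, with a median of 0.32, and 6 were higher and 0 lower in HDM_CP against PBS_CP, with a median of 0.44. C3 was higher by 1.29 ± 0.18 and 1.75 ± 0.18, Lcn2 by 1.62 ± 0.34 and 1.82 ± 0.34, and the STAT3 feedback gene Socs3 by 0.44 ± 0.12 in HDM_CP against PBS_CP (adjusted p = 0.016). Of 21 inhibitors outside the serpins, 2 were higher and 3 lower in HDM_SAL against PBS_SAL, and 6 were higher in HDM_CP against PBS_CP, led by Wfdc17 (1.97 ± 0.28) and the metalloprotease inhibitor gene Timp1 (1.54 ± 0.29), with medians of 0.24 and 0.40. Of 20 collagen folding genes, the partners of Serpinh1, 2 were higher in HDM_SAL against PBS_SAL. In HDM_CP against PBS_CP, 4 were higher and 1 lower. The medians were 0.00 and 0.08, beside 0.01 and 0.00 over all genes, with 10 of 20 and 16 of 20 genes positive. Of 12 tested epithelial trypsin-like and kallikrein proteases, 3 were higher in HDM_SAL against PBS_SAL, and 1 was higher and 1 lower in HDM_CP against PBS_CP, with medians of 0.21 in both. No gene of these lists was called by edgeR's test in PBS_CP against PBS_SAL or in HDM_CP against HDM_SAL. The medians of the acute phase list there were 0.22, with 19 of 21 genes positive, and 0.39, with 18 of 21 positive. The part of these genes in the serpin values was not tested.

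The counts of called list genes moved when 1 library was left out. In HDM_SAL against PBS_SAL they ran over the 27 fits from 2 to 8 for coagulation, 0 to 3 for plasminogen activation, 0 to 3 for complement C1, 1 to 5 for cathepsins, 4 to 5 for the acute phase list, 0 to 7 for other inhibitors, 1 to 3 for collagen folding and 1 to 4 for trypsin-like proteases. In HDM_CP against PBS_CP they ran from 5 to 7, 1 to 4, 4 to 6, 6 to 6, 4 to 8, 5 to 8, 2 to 7 and 1 to 4 for the same lists in the same order. Without HDM_SAL 50, 1 plasminogen activation gene was lower and 1 trypsin-like protease higher in HDM_SAL against PBS_SAL. Of the other inhibitors, 2 were higher and 1 lower in that fit. The complement C1, cathepsin, acute phase and collagen folding lists kept their counts.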

How the data were processed

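Whole-lung RNA was sequenced from 27 mice, 1 library each. Per the labels' protocols, polyA selection and 20 M read pairs of 150 bases per sample were planned. Per the submitters' processing notes, STAR, StringTie 2 and the GRCm39 build were used, with no roles or settings given. The authors deposited a table of estimated counts per gene and a table of TPM. Totals of the estimated counts ran from 56.3 M to 84.5 M, which is 2.82 to 4.22 times the planned pairs, for a reason not given in the sources used here, and whether counting used strand is not given either. The 310 genes without a symbol held 0.06% of counts. They stayed in the fit and could not enter the members or lists, which were matched by symbol.

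Estimated counts were rounded and fitted with edgeR 4.0.16 (R 4.3.3). Genes were filtered by filterByExpr with a minimum count of 10, libraries were scaled by TMM, and the 4 groups were fitted together with no covariate. Comparisons were tested by quasi-likelihood with Benjamini-Hochberg adjustment over 24629 genes, and a gene was called at an adjusted p of 0.05 or less. The common biological coefficient of variation was 0.241. The procedure was tested on simulated data, in which genes were changed in HDM_SAL only. No library was set apart from its group and no reads were shared among paralogs there, so the simulation does not cover these limits. Levels are the deposited TPM.

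The members, lists and tests were chosen with earlier results of these data known. Every expressed member is named with its level, except 1 that is counted but not reported here. Fold changes are given for members called in a comparison, or for the 5 of smallest p where fewer were called, and values per library for called members and the 10 most abundant. At most 4 called genes per list are named.

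Alternatives were other scalings, DESeq2 1.42.0, limma 3.58.1 (voom, and log2(TPM + 1) or log2(TPM + 0.1)), no count filter or a minimum of 50, only the groups compared, runs of library numbers as a covariate, counts divided by 4, leaving out the 3 libraries under 60 M, and leaving out each library in turn. Leaving out libraries for the number of expressed members and for the gene lists was added after the data were seen. Promoter windows are from RefSeq (GRCm38.p6) and coding sequences from GENCODE (GRCm38). Coordinates of genes are GRCm39, as in the files, and no coordinates were converted between builds.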

Additional observations from a re-analysis of the deposited data

Results flagged for a closer look

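Dixon's criterion was applied to 111 groups of values (28 expressed members by 4 groups, where they could be tested). In 21 of them a library lay far from the rest. Chance alone is taken to flag about 1 in 20, but that rate cannot be set beside this count. Serpina1e, Serpina1c, Serpina1b and Serpina3k counted as expressed only through HDM_SAL 50, so their flags in HDM_SAL followed from that choice. For Serpina1c in PBS_CP and PBS_SAL, every library but the flagged one stood at 0. HDM_SAL 50 was far above its group for Serpina1e (28.2 TPM, with the next library at 0), Serpina1c (15.9 TPM, next 0.265), Serpina1b (12.6 TPM, next 0.184) and Serpina3k (13.3 TPM, next 0.319). HDM_CP 45 was above its group for Serpina1e (0.682 TPM, next 0.264), Serpina1c (0.790 TPM, next 0.341) and Serpina1b (1.31 TPM, next 0.101), and below it for Serpinb9 (73.5 TPM, next 97.6). These are the libraries with the highest and second highest Alb.

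HDM_SAL 99 was above its group for Serpinb8 (8.85 TPM, next 7.53), Serpind1 (5.20 TPM, next 3.09) and Serpina3i (4.54 TPM, next 2.55). HDM_SAL 100 was below it for Serpinf1 (8.20 TPM, next 14.9). HDM_CP 67 was above its group for Serpinb2 (5.03 TPM, next 1.80), and HDM_CP 97 below it for Serpinb1a (23.2 TPM, next 28.3).

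Among the PBS groups, PBS_CP 75 was high for Serpine2 (132 TPM, next 115) and PBS_CP 58 for Serpina1c (0.0478 TPM, next 0). PBS_SAL 104 was high for Serpina3n (151 TPM, next 110) and Serpina3m (8.38 TPM, next 5.71). PBS_SAL 61 was high for Serpina3k (0.767 TPM, next 0.175) and Serpina1c (0.268 TPM, next 0), and PBS_SAL 105 for Serpina9 (2.05 TPM, next 0.667).

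A gene outside the protein-coding set also differed. Serpina3h, a long non-coding RNA record (6.79 TPM on average) that lies between Serpina3g and Serpina3i on chromosome 12 (104214121 to 104220671, GRCm39), was higher by 1.51 ± 0.34 on the log2 scale in HDM_SAL against PBS_SAL (adjusted p = 0.0093) and by 1.89 ± 0.33 in HDM_CP against PBS_CP (adjusted p = 0.00067), by edgeR's quasi-likelihood test. It overlaps a pseudogene record of the same symbol, and reads of its paralogs may be shared with it.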

How the results depend on the processing

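No paired analysis was possible because each library number belongs to 1 mouse and none is shared between groups. Of the alternatives for the number of called members, the others stayed within 1.5 times the values reported except 2: limma on log2(TPM + 1) without a filter called 5 members in HDM_SAL against PBS_SAL, and DESeq2 called 2 in HDM_CP against HDM_SAL. Leaving out 1 library gave 6 to 10 called members in HDM_SAL against PBS_SAL, 8 to 11 in HDM_CP against PBS_CP, 0 to 1 in HDM_CP against HDM_SAL, 0 in PBS_CP against PBS_SAL and 0 in the interaction. It gave 24 to 28 expressed members, and there were 35 at a limit of 0.25 TPM and 20 at 1 TPM. Over named members, 1199 values kept direction and call, 56 lost the call, 4 gained it and 1 reversed, which was Serpina3k in HDM_SAL against PBS_SAL without HDM_SAL 50 (-0.43, within leave-one-out values from -0.43 to 4.35); the cause was not tested. Serpina3g, Serpina3i, Serpina3n, Serpina3c and Serping1 were called in HDM_SAL against PBS_SAL in all 13 alternatives and all 27 fits that each lacked 1 library, Serpina3f in 8 and 18. Over all genes, calls in HDM_SAL against PBS_SAL (1339) came to 602 without HDM_SAL 99, 696 without HDM_SAL 54, 699 without HDM_SAL 50, 759 without PBS_SAL 80, 764 with limma on log2(TPM + 1) without a filter and 2009 with DESeq2. Calls in HDM_CP against PBS_CP (1938) came to 1194 with that limma fit and 1207 without HDM_CP 98. Calls in HDM_CP against HDM_SAL (1) came to 146 without HDM_CP 45, 46 without HDM_CP 96, 17 without HDM_SAL 99, 14 without HDM_CP 66, 192 with DESeq2 and at most 5 otherwise. Calls in PBS_CP against PBS_SAL (2) came to 32 with DESeq2, 15 with limma voom and 1 to 5 otherwise, and interaction calls (0) to 6 with DESeq2 and at most 1 otherwise. The Serpina1 genes, most of whose reads lay in HDM_SAL 50, failed the count filter with all 27 libraries.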
